A study of Mus musculus with 4 samples.

Results

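Calls of open chromatin were described around 10 mouse genes that encode apolipoproteins and the proteins that assemble and remodel lipoproteins. The genes were Apob, Mttp, Apoe, Apoc1, Apoc4, Apoc2, Apoa2, Apom, Pltp and Lcat, out of 21631 protein-coding genes. All peaks inside a gene or within 50 kb of either end, by RefSeq positions on GRCm38 (mm10), were taken, and peaks that overlapped or touched between libraries were merged into regions. This gave 41 regions out of 38853 in the series, from 132 peaks counted library by library. The genes were picked by name and position and not by any measured value, although results of the same lists were already known when they were picked.

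All mice were females of the FVB background, 11 weeks old and fed standard chow, and their livers were sampled. PA mice were Pcca-/- and carried the hypomorphic form A138T of Pcca, which encodes a subunit of propionyl-CoA carboxylase, the enzyme deficient in propionic acidemia. The labels do not state how the A138T form was expressed. WT mice were the wild type on the same background. There were 2 PA and 2 WT libraries, called biological replicates in the series design, made from frozen liver by Omni-ATAC, in which a transposase inserts adaptors into open DNA.

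Lipoproteins carry triglyceride and cholesterol through the blood inside a coat of phospholipid and apolipoproteins. The liver builds very low density lipoprotein by loading lipid onto newly made apolipoprotein B, and it supplies much of the protein of high density lipoprotein. Apolipoproteins on the particle then act as ligands for receptors and as activators or inhibitors of lipases, and plasma enzymes and transfer proteins reshape the particle. The question the groups address at these genes is whether open sites near them differ between PA and WT livers.

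The lists held 25683 and 29765 peaks in PA 1 and PA 2, against 26280 and 25941 in WT 1 and WT 2. They give positions only, nearly all 400 bp long, so a region is either called or not called in a library and its degree of opening is unknown. Read depth is also unknown, and a library with more reads can pass the caller's threshold at more places. Where a peak stands in its list is given as the percentage of the way down, as a description, because the sources used here do not state how the lines were ordered. A peak within 1 kb of a start was called in all 4 libraries at 5 of 10 hepatocyte markers (among them Ttr, Cps1, Hnf4a and Trf), and 0 of 10 lacked one in every library. Over all protein-coding genes these shares were 42.8% and 46.9%. For the markers of other liver cells the count called in all 4 libraries was 0 of 8 for Kupffer cells and macrophages, 1 of 6 for endothelial cells, 1 of 6 for stellate cells, 0 of 5 for bile duct cells and 1 of 5 for lymphocytes. In the same order, 4 of 8, 3 of 6, 4 of 6, 4 of 5 and 4 of 5 lacked one in every library. Of the Kupffer cell and macrophage markers, Adgre1 was called in PA 1 and PA 2 alone and C1qb in WT 1 and WT 2 alone. The share of all protein-coding genes with either pattern was not counted, so these calls have no background beside them. Alb had such a peak in PA 1 alone. Fewer cells of a type and less open chromatin per cell cannot be told apart in bulk liver. At Pcca itself the start at position 122534328 of chromosome 14 lay in a region called in all 4 libraries (122534040 to 122534470), while its other listed start, at 122484365, had no peak within 1 kb in any library. The region nearest to that other start, 19949 bp away (122463955 to 122464416), was called in WT 1 and WT 2 alone, as were 1.98% of all merged regions. The lists hold no bases and so cannot show the A138T form.

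The stretches just upstream of a start are shown for 3 genes with a peak within 1 kb of it in every library, Apob, Lcat and Mttp, and for 2 genes without one, Pltp and Apom. Such a peak need not cover the stretch. No peak reached the Mttp stretch, and no PA 1 peak reached the Apob stretch. Sequences are those of RefSeq on GRCm38.p6, read 5′ to 3′ in the direction of the gene, and are cut to bases outside every annotated gene. Capitals mark matches, on either strand, to the short motifs spelled out beside the motif counts.
Apob, chr12:7977427-7977628, plus strand: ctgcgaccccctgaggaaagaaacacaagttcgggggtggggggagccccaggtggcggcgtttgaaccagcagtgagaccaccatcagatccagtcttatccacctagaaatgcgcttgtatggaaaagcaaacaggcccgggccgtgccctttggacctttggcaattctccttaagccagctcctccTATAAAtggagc
Lcat, chr8:105943403-105943589, minus strand: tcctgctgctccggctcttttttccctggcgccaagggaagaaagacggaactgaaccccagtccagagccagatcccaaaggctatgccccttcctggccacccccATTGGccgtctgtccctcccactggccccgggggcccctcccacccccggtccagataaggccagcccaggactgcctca
Mttp, chr3:138143419-138143447, minus strand: acgtcatcggactgcgctaactccaaacc
Pltp, chr2:164857709-164857958, minus strand: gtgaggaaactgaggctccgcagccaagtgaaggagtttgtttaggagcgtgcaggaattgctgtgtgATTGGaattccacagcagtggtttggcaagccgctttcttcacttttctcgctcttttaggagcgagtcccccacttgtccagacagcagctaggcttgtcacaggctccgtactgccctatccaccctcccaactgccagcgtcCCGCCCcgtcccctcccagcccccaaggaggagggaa
Apom, chr17:35131802-35132051, minus strand: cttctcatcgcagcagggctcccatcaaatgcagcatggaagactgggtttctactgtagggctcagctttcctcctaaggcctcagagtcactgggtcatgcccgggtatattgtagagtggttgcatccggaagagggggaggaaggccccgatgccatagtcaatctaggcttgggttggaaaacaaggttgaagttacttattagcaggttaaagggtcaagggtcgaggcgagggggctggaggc
In capitals are a match to the TATA box in the Apob stretch, to the CCAAT box in the Lcat stretch, and to the CCAAT box and the GC box in the Pltp stretch. The Mttp stretch is the 29 bases between the spans of Mttp and Trmt10a, its neighbour on the other strand, and like the Apom stretch it holds none of the letters searched.

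The number of peaks called at these genes overlapped between PA and WT livers. Peaks in the windows numbered 30 in PA 1 and 36 in PA 2, against 35 in WT 1 and 31 in WT 2. Each genotype held a library with few and a library with many. The mean was 33 ± 4.24 in PA and 33 ± 2.83 in WT (SD, n = 2 each), a difference of 0 (exact permutation test over the libraries, two-sided, p = 1). With 6 assignments of the labels the smallest p this test can give is 0.333, so it could not have shown a difference. Without PA 1 the difference was 3, and without PA 2 it was -3. Per 1000 peaks of the list the windows held 1.168 in PA 1 and 1.209 in PA 2, against 1.332 in WT 1 and 1.195 in WT 2 (difference -0.0746, exact permutation p = 0.667).

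Most of the regions were called in every library. Of the 41 regions, 23 (56.1%) were called in all 4 libraries, against 45.3% of all merged regions. A further 8 were called in 3 libraries (19.5%, against 13.4% of all), 6 in 2 libraries (14.6%, against 14.5%) and 4 in 1 library (9.76%, against 26.8%). A single region, inside Mttp, was PA-only, that is, called in PA 1 and PA 2 and in no WT library. It makes up 2.44% of the 41, against 3.38% PA-only among all regions. None was WT-only, called in WT 1 and WT 2 and in no PA library, against 1.98% of all regions, and a count of 0 of 41 allows a share of up to 7.32% by counting error alone. Both shares lay near those of the whole series. Without WT 1, 4 regions were called in both PA libraries and not in WT 2. Without PA 2, 4 regions were called in both WT libraries and not in PA 1.

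**Figure D1:**
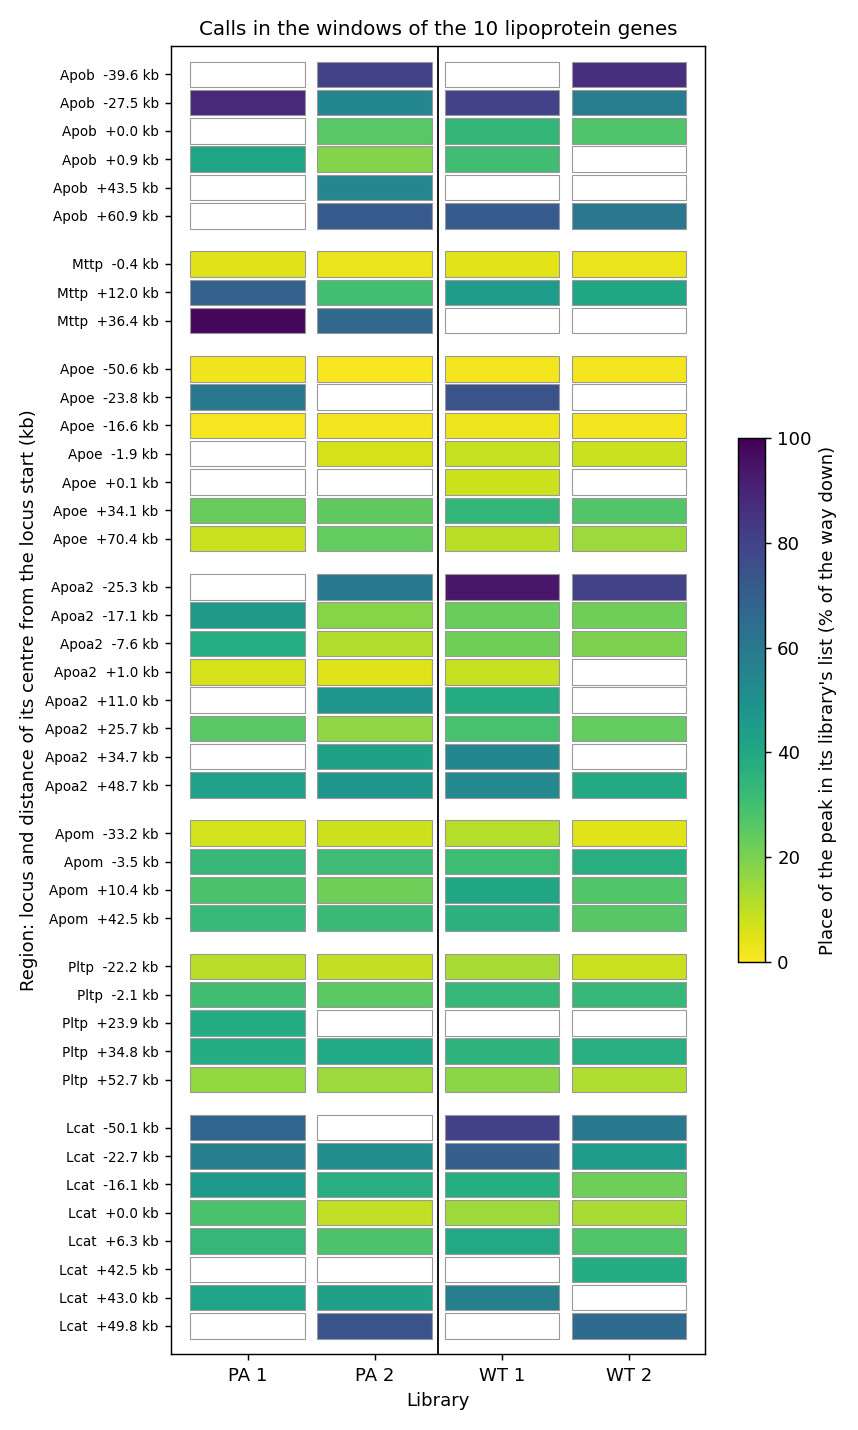
Calls of the 41 regions (rows, labelled by locus and by the distance of the region's centre from the most upstream annotated start of the locus gene in kb) in the 4 libraries (columns, PA left of WT). Coloured cells are called, with the colour giving the place of the peak in its list in percent of the way down, and white cells are not called; 23 rows are filled across, and the row Mttp +36.4 kb is filled in both PA libraries alone.

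The windows also hold other genes, and more regions lay at the start of a neighbour than at the start of a lipoprotein gene. Only 6 of the 41 regions lay within 1 kb of a start of 1 of the 10 genes, and 2 of these 6 were called in all 4 libraries. Another 17 lay within 1 kb of a listed start of a different protein-coding gene, and 12 of these were called in all 4. A further 12 lay elsewhere inside genes and 6 between genes, with 6 and 3 of them called in all 4 libraries. Starts that are not listed could not be counted. Regions in Relb and Zswim1 are among these 12, although they lay 353 bp and 33 bp from an end of their gene. The number of regions per window had a median of 6 over the 10 genes, against 4 over all protein-coding genes. Apoe, Apoc1, Apoc4 and Apoc2 lie together and share most of their regions, yet each entered this median. Apoa2 and Lcat had the most, with 8 each, and 90.5% of protein-coding genes had fewer. Mttp had the fewest, with 3. Each of the 10 windows held at least 1 region called in all 4 libraries, as did those of 74.6% of all protein-coding genes.

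A peak within 1 kb of a start was called in all 4 libraries at 3 of the 10 genes, against 42.8% of all protein-coding genes. These were Apob, Mttp and Lcat. Apoa2 had such a peak in 3 libraries and Apoe in 1. Apoc1, Apoc4, Apoc2, Apom and Pltp had none in any library, as had 46.9% of all protein-coding genes. Apoc1 was judged from either end of the gene. None of the 10 genes had such a peak in both libraries of a single genotype alone. The share of all protein-coding genes with that pattern was not counted.

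**Figure D2:**
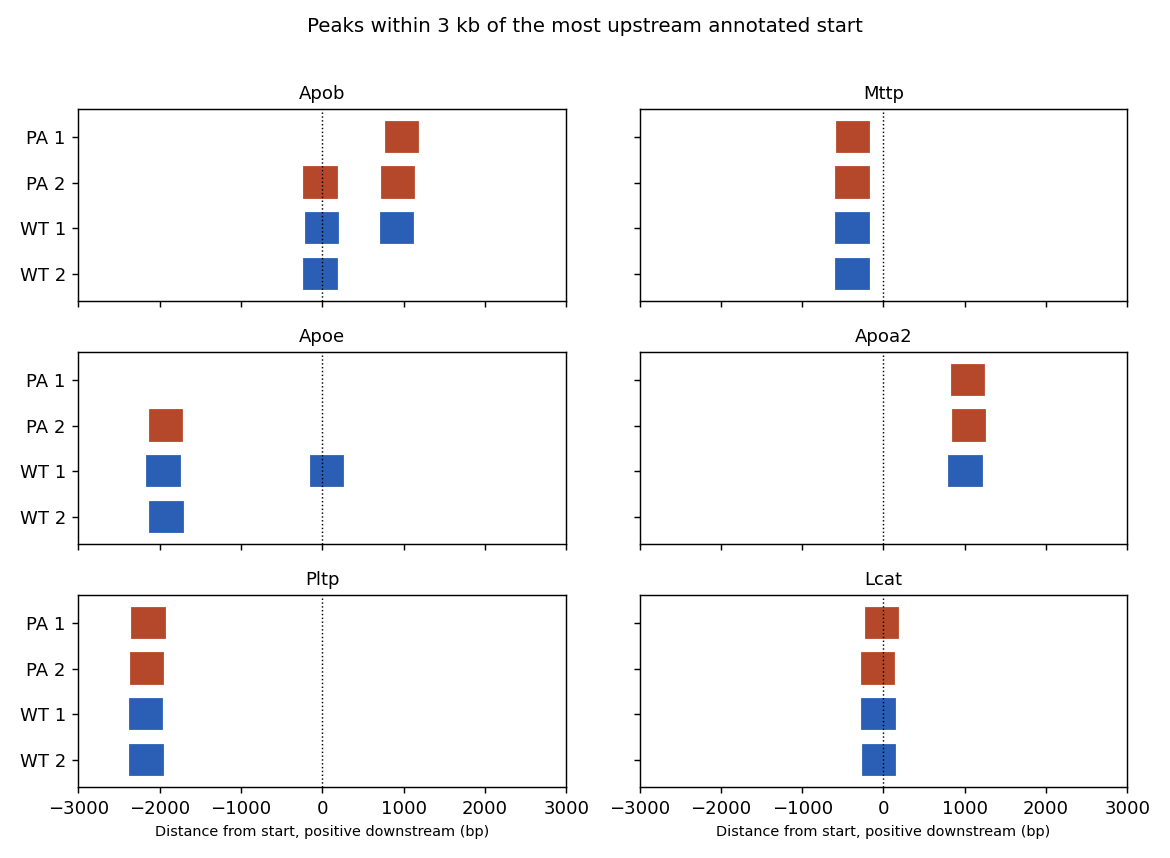
Peaks (boxes, drawn to scale) within 3 kb of the most upstream annotated start of 6 genes in the 4 libraries (rows, PA red and above WT blue), with distance from the start in bp on the x axis, positive downstream. Mttp, Pltp and Lcat have a peak at the same place in every library, while Apob, Apoe and Apoa2 each have a region that is missing from at least 1 library.

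Apob encodes the large structural protein of very low density lipoprotein and its remnants. Its start, at position 7977677 of chromosome 12 on the plus strand, was covered by a region (7977454 to 7977869) whose place was 25.9% in PA 2, 33.7% in WT 1 and 27.7% in WT 2. PA 1 had no call there. A separate region inside the gene began 718 bp downstream of the start (7978395 to 7978853), at 41.5% in PA 1, 18.5% in PA 2 and 30.8% in WT 1, and WT 2 had no call there. Thus every library had a call at the start or just inside the gene, PA 2 and WT 1 had one at each place, PA 1 had the inner one alone and WT 2 the outer one alone. The nearest PA 1 peak to the outer region was 585 bp away, and the nearest WT 2 peak to the inner region 542 bp away. Of all 6 Apob regions, only the one at 7949947 to 7950448, upstream of the gene, was called in all 4 libraries. It stood 88.8% down PA 1 and 54.0% down PA 2, against 80.3% down WT 1 and 58.0% down WT 2. Peaks in the Apob window numbered 2 in PA 1 and 6 in PA 2, against 4 in each WT library, so the PA libraries differed more from each other than from WT.

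Mttp encodes the large subunit of microsomal triglyceride transfer protein, which loads lipid onto apolipoprotein B in the endoplasmic reticulum. The region next to its start (chromosome 3, 138143595 to 138143998) lay 177 bp upstream and was among the highest in every list, at 4.75% in PA 1 and 3.22% in PA 2, against 4.57% in WT 1 and 3.21% in WT 2. It also lay inside Trmt10a, a tRNA methyltransferase gene that runs the other way, and a call there cannot be assigned to either gene. The centres of its 4 peaks lay within 4 bp of each other. A region inside Mttp (138131164 to 138131660) was also called in all 4 libraries, at 68.8% and 30.3% in PA 1 and PA 2, against 45.4% and 40.6% in WT 1 and WT 2.

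The single PA-only region lay deeper inside Mttp (138106843 to 138107276), 36142 bp downstream of the start. Its place was 97.9% in PA 1 and 66.5% in PA 2, so that the PA 1 peak was among the last of its list. The nearest WT peaks were 23900 bp away in WT 1 and 23888 bp away in WT 2. Of all protein-coding genes, 9.73% had a PA-only region inside or within 50 kb and 6.58% a WT-only region, so 1 such gene and 0 such genes of 10 lay near the background.

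**Figure D3:**
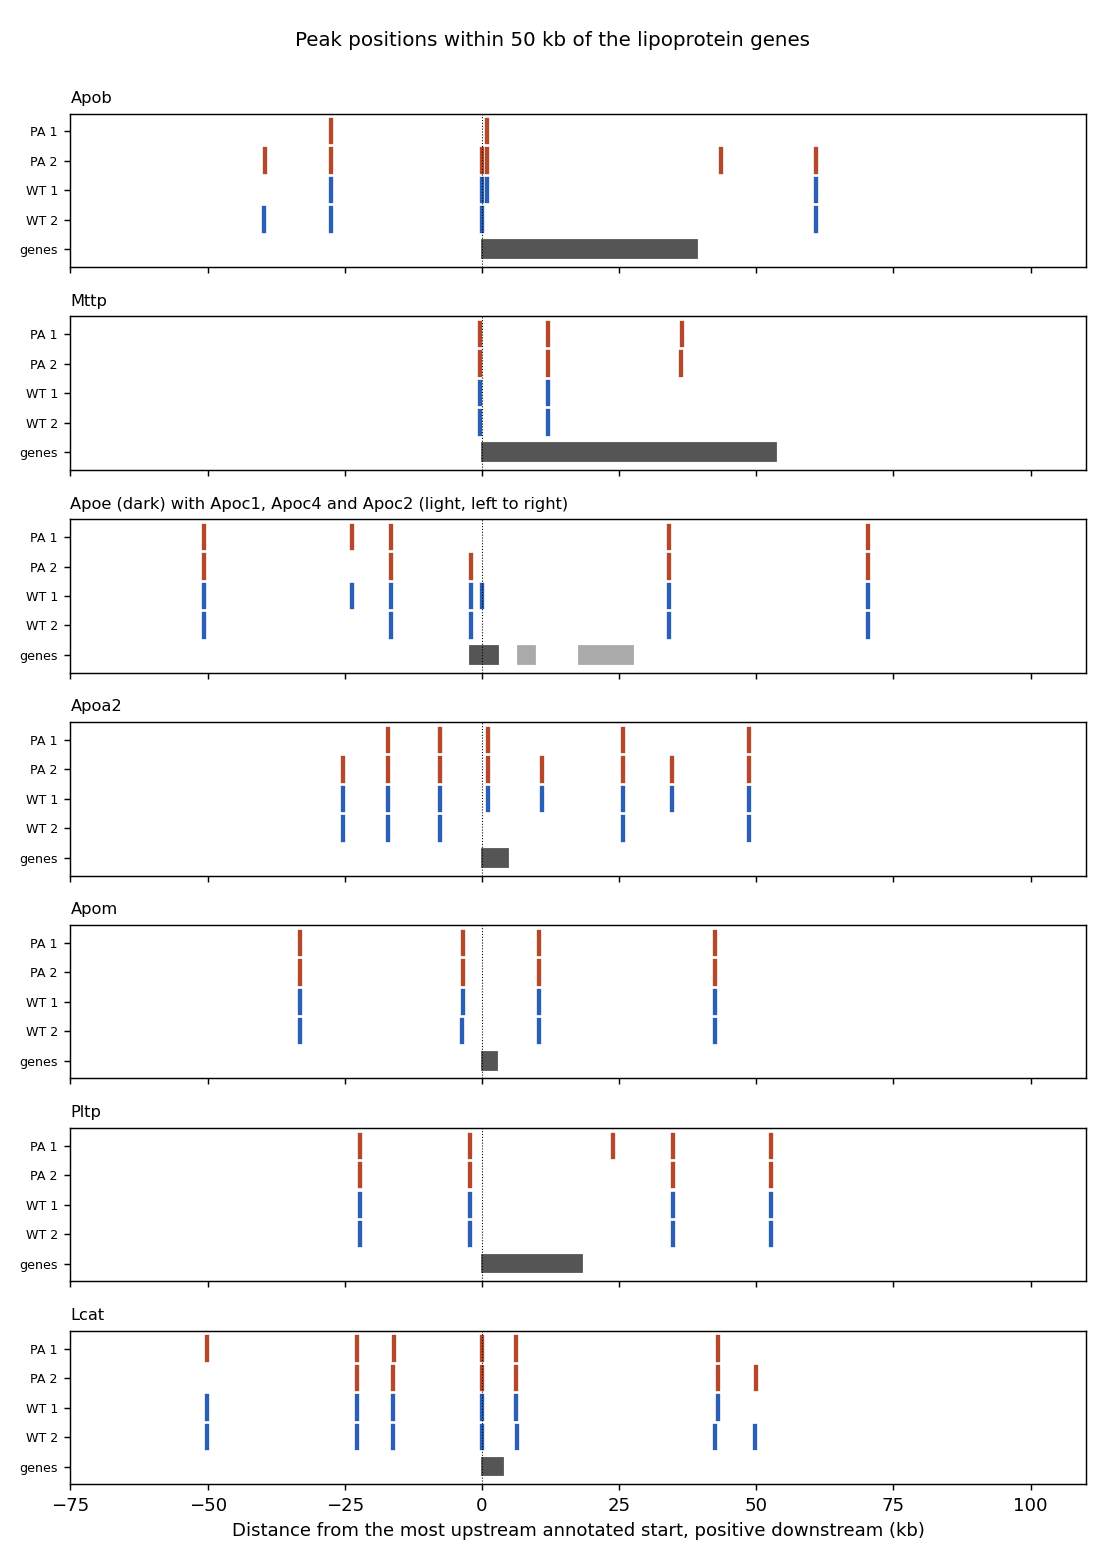
Peak centres (vertical bars, PA red and above WT blue) in the windows of the 10 genes, 1 panel per locus, with distance in kb from the most upstream annotated start of the named gene on the x axis, positive downstream, and gene spans as grey bars (Apoc4 and Apoc2 adjoin). The 4 Apom regions are called in every library, and PA and WT rows differ together only at the Mttp region 36.4 kb downstream.

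Apoe, Apoc1, Apoc4 and Apoc2 lie together on chromosome 7 and share most of their regions, so they count here as a single locus with 7 regions. Apolipoprotein E is the ligand by which remnants bind receptors on liver cells, apolipoprotein C-II activates lipoprotein lipase and apolipoprotein C-I inhibits the clearance of particles. Peaks at the locus numbered 5 in each PA library, against 7 in WT 1 and 5 in WT 2. The difference thus came from WT 1 alone.

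A region over the Apoe start at position 19699188 (19698932 to 19699331) was called in WT 1 alone, at 7.77% of the way down that list. A region 1718 bp upstream of it (19700906 to 19701339), at the outer end of the annotated Apoe span and the end of Tomm40, was called at 6.35% in PA 2, 8.86% in WT 1 and 8.01% in WT 2. PA 1 had neither, and its nearest peak to the second region was 14204 bp away. The Apoe gene therefore had no call in PA 1, a single call in PA 2 and WT 2, and a pair of calls in WT 1. These calls stood in the first 10% of their lists. Of all regions in the series whose every peak stood that high, 4.76% were missing from at least 1 library.

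Apoc1, Apoc4 and Apoc2 had no peak within 1 kb of a start in any library. The nearest region was 6273 bp from an end of Apoc1, 16141 bp from the Apoc4 start and 12622 bp from the Apoc2 start. The regions around them that were called in all 4 libraries belonged to neighbours by position. The region at the start of Tomm40 (19715542 to 19715954), a subunit gene of the mitochondrial import channel, stood at 1.499% in PA 1 and 1.70% in PA 2, against 2.67% in WT 1 and 1.80% in WT 2. The region at the start of Nectin2 (19749565 to 19750030), a cell adhesion gene, stood at 2.06% in PA 1 and 0.870% in PA 2, against 1.82% in WT 1 and 1.60% in WT 2. A region at the start of Clptm1 (19664886 to 19665319) stood between 23.2% and 33.9% in the 4 lists. A region inside Relb, an NF-kappaB subunit gene (19628560 to 19629085), stood at 8.09% and 24.0% in PA 1 and PA 2, against 10.5% and 15.0% in WT 1 and WT 2. It lay 353 bp from an end of Relb, and the nearest listed start, that of Clasrp, was 24074 bp away. The remaining region of the locus, inside Nectin2 (19722742 to 19723142), was called in PA 1 and WT 1.

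Apoa2 encodes the second most abundant protein of high density lipoprotein. It has 2 listed starts on chromosome 1, at 171221564 and 171225054. The region between them (171222374 to 171222813) lay 810 bp downstream of the first start and 2241 bp upstream of the second. It also overlaps Tomm40l, and a call there cannot be assigned to either gene. The region stood at 6.59% in PA 1 and 4.90% in PA 2, against 8.87% in WT 1. It was not called in WT 2, whose nearest peak was 8237 bp away. It was the highest region of the Apoa2 window in the 3 libraries that had it. The second start had no peak within 1 kb in any library.

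The other 7 regions of the Apoa2 window lay near or in neighbours. A region at the start of Nr1i3, the gene of the xenobiotic receptor CAR (171213690 to 171214149), was called in all 4 libraries, at 38.1% in PA 1 and 11.4% in PA 2, against 22.2% in WT 1 and 19.8% in WT 2. Regions between Pcp4l1 and Nr1i3 (171204264 to 171204675) and at the start of B4galt3 (171270073 to 171270509) were also called in all 4. Regions inside Fcer1g, an Fc receptor subunit gene of myeloid cells, and inside Adamts4 were called in PA 2 and WT 1 and not in PA 1 or WT 2. A region at Pcp4l1 was called in PA 2 and both WT libraries. Peaks in the window thus numbered 5 in PA 1 and 8 in PA 2, against 8 in WT 1 and 5 in WT 2.

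Apom encodes apolipoprotein M, which carries sphingosine 1-phosphate on high density lipoprotein, and lies in the gene-dense class III part of the major histocompatibility complex on chromosome 17. Its 4 regions were all called in all 4 libraries, and none lay within 1 kb of its start at 35131801. The nearest, 3174 bp upstream (35134975 to 35135704), covered the start of Bag6 and stood at 33.1% in PA 1 and 31.2% in PA 2, against 31.4% in WT 1 and 37.0% in WT 2. The centres of its peaks spread over 330 bp, the widest spread among the members' regions called in every library. The others lay at the starts of Abhd16a, Csnk2b and Prrc2a, of which the Prrc2a region (35164801 to 35165206) was highest, at 6.65% and 7.67% in PA 1 and PA 2, against 11.0% and 4.97% in WT 1 and WT 2.

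Pltp encodes phospholipid transfer protein, which moves phospholipid between lipoproteins. Its start, at 164857708 of chromosome 2, lacked a peak within 1 kb in every library. A region between genes, 1939 bp upstream (164859647 to 164860078), was called in all 4 libraries, at 30.7% in PA 1 and 25.2% in PA 2, against 33.5% in WT 1 and 32.9% in WT 2. The centres of its 4 peaks lay within 32 bp. Of the other regions of the window, those at Acot8, Pcif1 and Zswim1 were called in all 4 libraries and one at the start of Ctsa was called in PA 1 alone, at 38.3%.

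Lcat encodes lecithin-cholesterol acyltransferase, the plasma enzyme that esterifies cholesterol on high density lipoprotein. A region over its start at 105943402 of chromosome 8 (105943218 to 105943666) was called in all 4 libraries and holds the whole Lcat stretch printed above. It stood at 28.7% in PA 1 and 9.43% in PA 2, against 14.7% in WT 1 and 13.2% in WT 2, so PA 1 had it lowest and the other 3 libraries close together. The region also reaches the end of Slc12a4, a potassium-chloride cotransporter gene. The regions in Psmb10 and at the start of Slc12a4 and inside it were called in all 4 libraries. At Pskh1, 2 regions lay 79 bp apart, and the first (105900172 to 105900590) was called in PA 1, PA 2 and WT 1 while the second (105900669 to 105901068) was called in WT 2 alone. All 4 libraries thus had a peak at Pskh1, with that of WT 2 set to the side. A region at Nrn1l was called in PA 2 and WT 2, and one inside Dpep2 in all libraries but PA 2.

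Where a region was called in all 4 libraries, the peaks of PA and WT lay at nearly the same place. This closeness was partly set by the merging, which joined only peaks that overlapped or touched. The centres of the 4 peaks spread over a median of 37 bp in the 23 such regions, with a range of 4 to 330 bp, against a median of 43 bp over all 17581 regions called in every library. The median place of these 23 regions was 30.7% in PA 1 and 24.0% in PA 2, against 31.4% in WT 1 and 23.9% in WT 2. The corresponding medians over all regions called in every library were 35.9% and 32.4% in PA 1 and PA 2, and 36.7% and 36.9% in WT 1 and WT 2. These are descriptions, with no test.

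The ratio of observed to expected CpG in the 300 bases from 250 before to 50 after a start was below 0.5 for 9 of the 12 listed starts, against 45.1% of all starts of protein-coding genes. The 12 starts belong to 9 of the genes. The low ratios ran from 0.0487 for the first Apoa2 start to 0.498 for Pltp. It was 0.945 for Mttp and 0.594 and 0.621 for the inner Apoe starts. Over all starts of protein-coding genes, 11.4% of those with a ratio below 0.5 had a peak within 1 kb in all 4 libraries, against 67.3% of those at or above it. Apob and Lcat, with ratios of 0.374 and 0.254, were called in all 4 libraries although their ratios were low. Over all starts the ratio thus moves with the share of calls, and its part in the calls at these genes was not tested.

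**Figure D4:**
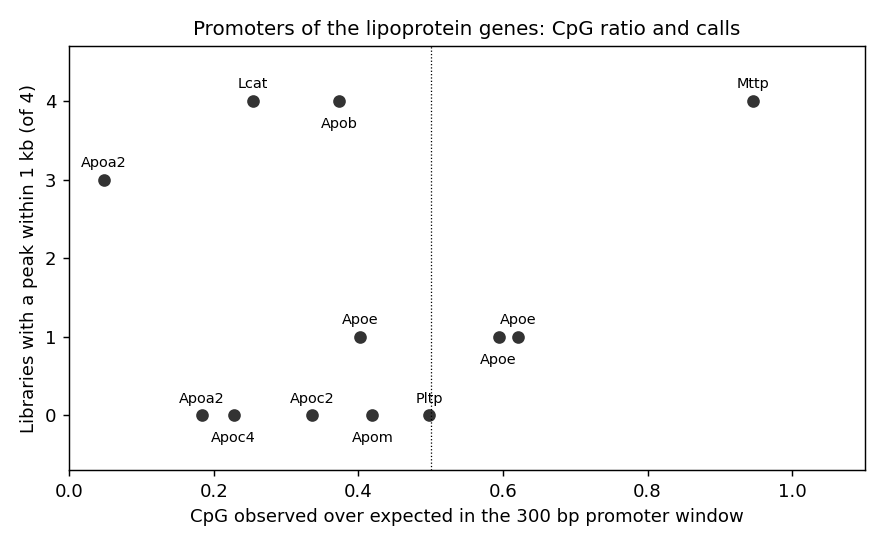
Ratio of observed to expected CpG (x axis) and number of libraries with a peak within 1 kb (y axis, of 4) for each of the 12 listed starts, with the ratio of 0.5 dotted. Mttp, at 0.945, Apob, at 0.374, and Lcat, at 0.254, are called in all 4 libraries.

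Short motifs were searched on both strands of the same 300 bases, and a match is a description of letters and not of a bound site. Each count is set against the share of all starts of protein-coding genes and, in second place, of those with a CpG ratio below 0.5. TATAAA, the core promoter motif, was present at 4 of the 12 starts, against 12.7% and 20.9%, and lay at Apob, Pltp, the second Apoa2 start and an inner Apoe start. The Pltp match lay past the start, outside the upstream stretch printed above. CCAAT was present at 5, against 38.5% and 40.1%, and GGGCGG, the GC box, at 3, against 46.7% and 15.8%. AGGTCA, the hexamer that nuclear receptors bind, was present at 3, at Apoc4, Apoc2 and the first Apoa2 start, against 14.6% and 20.4%. TGTTTAC (FOXA) was present at 2, against 3.03% and 4.13%. CAAAGTC (HNF4) and CACGTG (E box) were present at none of the 12. CAAAGTC was present at 4.17% and 5.48% of the other sets, and CACGTG at 7.91% and 4.02%. No more than that these letters are absent from these windows can be read from it. The windows of the inner Apoe starts share bases.

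Beyond the 10 genes, 42 other genes of lipoprotein handling were listed. A peak within 1 kb of a start, or of either end where no start was listed, was called in all 4 libraries at 23 of them (54.8%, against 42.8% of all protein-coding genes). They included Scarb1, a receptor for high density lipoprotein, Abca1, the cholesterol exporter that starts high density lipoprotein, Abcg5 and Abcg8, which export sterols into bile, Apobec1, which edits the Apob transcript, and Surf4, a cargo receptor of the endoplasmic reticulum. No library had one at 12 of them, among them Apoa1, Apoa5, Lpl and Lipc. Pon1 was the only one with calls in PA 1 and PA 2 alone, and 0 had calls in WT 1 and WT 2 alone. The share of all protein-coding genes with either pattern was not counted, so these numbers have no background beside them. In the windows of the Apoa1, Apoc3, Apoa4, Apoa5 and Zpr1 cluster, 1 of 11 regions was called in all 4 libraries, 1 was PA-only and 0 were WT-only. Over all merged regions of the series these shares were 45.3%, 3.38% and 1.98%. The start of Zpr1 had calls in PA 1 and PA 2 alone. At the genes described here the counts were 23, 1 and 0 of 41, and whether the shares differ was not tested.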

How the data were processed

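Per the labels, 1 list of ATAC-seq peaks was deposited by the authors for each liver library, as chromosome, start and end, so the values are positions with no other unit. Peaks were 400 bp long except for 3 or 4 in each list. Per the submitters' processing notes, GRCm38 (mm10) was the genome build, and the software named is bedtools 2.31.0, HOMER 4.10, R 4.1.2, SAMtools 1.17, Bowtie2 2.5.1 and cutadapt 3.5, with no role stated. The sources used here do not state which caller and threshold gave the peaks, or whether reads were filtered or shifted for the transposase. Depth is unknown, and the floor of 3 counts for a count of 0 covers the counting of regions only.

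Overlapping or touching peaks were merged across libraries with Python 3.11.15 and NumPy 2.4.6, and 1 bp of a library's peak in a region sufficed for a call. Merging was tested on simulated lists. Groups and replicate numbers came from the titles. Gene spans came from the RefSeq table of GRCm38.p6, and starts and strands from RefSeq promoter windows, which matched 17274 of 21631 protein-coding genes and 9 of the 10 described; for the rest either end was used to judge calls at a gene, while regions were placed by listed starts alone. Counts per library were compared by an exact permutation test, and regions were not tested. The named genes are the 10 members, neighbours with a region within 1 kb of an end, and listed lipoprotein genes; other neighbours were named after their values were seen, to say where a region lies. Members, lists and alternatives were chosen with earlier results of these data known. Alternatives were other flanks, equal or shortened lists, a stricter overlap, other distances from the start, a replicate block and leaving out each library. Some results are withheld and not reported here.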

Additional observations from a re-analysis of the deposited data

How the results depend on the processing

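The difference in mean peak count, 0 as reported, was 1.5 with 20 kb flanks, -1 with 100 kb flanks and 0.5 in the first 50% of each list (PA minus WT). It ranged from -3 (without PA 2) to 3 (without PA 1) when a library was left out, and was 2 without WT 1 and -2 without WT 2. The exact permutation p was no lower than 0.667 in any of these. Regions called in all libraries numbered 13 with 20 kb flanks and 38 with 100 kb flanks, and ranged from 23 to 27 with a library left out. PA-only regions ranged from 1 to 4 and WT-only regions from 1 to 4 with a library left out, since the condition is then looser. Genes called at a start in all libraries ranged from 3 to 4 with a library left out, and numbered 2 at 500 bp and 4 at 2 kb. Held to 25683 lines each, the lists gave the same counts. In the first 50% of each list the single PA-only region was at Pskh1 near Lcat (105900172 to 105900589), and the Mttp region was no longer among them. With a replicate block, which pairs PA and WT libraries of the same number, the difference was also 0 (exact sign flips, p = 1), from -5 for number 1 and 5 for number 2, and nothing in the labels says that the numbers pair the samples. With either end of a gene in place of its start, or 2 kb in place of 1 kb, Apoe was called in 3 libraries instead of 1, and at 2 kb Pltp was called in 4 instead of 0. At 500 bp Apob was called in 3 libraries and Apoa2 in 0. Unknown depth limits every call.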

Other observations

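Regions missing from a library had another region within 2 kb more often than regions called in all 4 libraries did, though over the whole series most had none, a pattern looked for after the data were seen and reported as values. In the windows of the 10 genes, 6 of 18 regions missing from a library (33.3%) had another region within 2 kb, at Apob, Apoe and Pskh1, against 0 of 23 regions called in all 4. Both regions of each close pair were counted. The contrast is partly set by the merging. Where the peak of a library lies beside those of the others without overlap, as at Pskh1, the place splits into close regions that are each missing from a library. Over the whole series the shares were 12.3% of 21272 and 4.97% of 17581. Among regions whose every peak stood in the first 10% of its list the shares were 70.3% of the 91 missing from a library and 3.35% of the 1821 called in all 4. In the windows of the 10 genes, 6 regions stood that high in every list that held them. Those at Mttp, Tomm40 and Nectin2 were called in all 4 libraries, and those at Apoa2 and Apoe were missing from at least 1.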
